A study of Mus musculus with 6 samples.

Results

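The cytosolic ribosomal proteins were described here as a gene module, that is, every gene of the deposited table whose symbol is Rps or Rpl followed by a number (with a letter a, x or l where present), Rplp0 to Rplp2, or Rpsa. The rule used names only and found 81 of the 22298 genes, 31 of the small subunit and 50 of the large subunit. MIN6 cells, an insulinoma line of the mouse that secretes insulin, were sequenced in 6 samples, 3 of the control group and 3 of the chronic epinephrine group. Epinephrine was used at 100 nM. The treatment is described as 3 days of exposure and then 2 days without it, and the day on which RNA for sequencing was taken is not given in the sources used here. All 6 samples were of the same cell line and differ in their labels by treatment only. The study's methods speak of its replicates as biological, in general terms, and the labels do not say which cultures the sequenced samples came from. Each p-value sets the difference between the groups against the spread between these samples, part of which may be technical. That spread was estimated with the help of all genes.

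The ribosome is built from a small subunit, which holds the messenger RNA and reads its codons, and a large subunit, which joins the amino acids and releases the new chain through a tunnel. Each subunit takes up its proteins in fixed proportion, and the transcripts of these proteins are among the most abundant of a dividing or secreting cell. In vertebrates these messenger RNAs begin with a run of pyrimidines, the terminal oligopyrimidine or TOP motif, through which their translation follows the nutrient and growth signals that reach the kinase mTOR. A beta cell depends on them to make insulin, its main secreted product.

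The start sites of some members are shown because members that were measured together may be compared by the letters at which transcription begins. Each line gives 30 bases from RefSeq (GRCm38.p6), 15 before and 15 from the annotated start, on the strand of the gene, with a pyrimidine run that opens with C at the start in capitals. The first 6 lines hold such a run of at least 5 bases and the last 4 do not.
Rps6 (chr4:86857353-86857382, minus strand): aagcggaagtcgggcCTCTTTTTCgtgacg
Rps18 (chr17:33955651-33955680, minus strand): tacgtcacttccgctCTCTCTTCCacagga
Rpl28 (chr7:4792950-4792979, plus strand): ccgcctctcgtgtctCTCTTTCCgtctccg
Rpl35 (chr2:39005117-39005146, minus strand): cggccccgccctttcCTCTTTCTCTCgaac
Rpl38 (chr11:114668565-114668594, plus strand): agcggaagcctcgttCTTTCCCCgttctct
Rplp2 (chr7:141447636-141447665, plus strand): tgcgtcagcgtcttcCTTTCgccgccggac
Rps2 (chr17:24720048-24720077, plus strand): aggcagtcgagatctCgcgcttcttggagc
Rpl12 (chr2:32961697-32961726, plus strand): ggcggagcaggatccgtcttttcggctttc
Rpl4 (chr9:64173372-64173401, plus strand): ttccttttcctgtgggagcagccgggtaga
Rpl37a (chr1:72711245-72711274, plus strand): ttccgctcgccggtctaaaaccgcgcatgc

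A start-site window was found for 23 small-subunit and 38 large-subunit members, and a gene with more than 1 annotated start counted as holding a feature if any window held it. A run of at least 5 pyrimidines that begins with C exactly at the start was present in 6 of 23 small-subunit members (26.1%) and 7 of 38 large-subunit members (18.4%). Among the 10070 other tested genes with a window it was present in 2.88%, and in 0 of 69 mitochondrial ribosomal protein genes. Annotated starts can lie some bases from the used ones. A run of at least 8 pyrimidines, counted from a C and lying within 25 bases on either side, was therefore also counted. It was present in 47.8% of small-subunit and 55.3% of large-subunit members, against 19.1% of the other tested genes. The sequence CCGGAAG, on either strand of the 250 bases before to 50 bases after the start, was present in 43.5% and 39.5% of the members of each subunit and in 19.9% of the other tested genes. The mitochondrial ribosomal protein genes held it at 37.7%, close to the members. Unlike the genes they are set against, the 38 large-subunit members include genes too low in counts to be tested, Rpl3l, Rpl10l and Rpl39l. Of these, Rpl39l held CCGGAAG and the run of at least 8. These matches describe the letters of the windows and were not taken as binding sites.

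Depth was similar in all samples, with totals from 15017065 to 17457583 expected counts (estimated per gene) for controls and from 15256957 to 18127171 for epinephrine samples. Of the members, 78 passed the filter on low counts, 31 of 31 small-subunit and 47 of 50 large-subunit genes, and the tested members had 405 to 18732 expected counts in any sample. The controls did not lie together. On the first principal component of log2 CPM (counts scaled to the library total), control 1 scored -38.9, controls 2 and 3 scored -2.37 and -0.524, and the epinephrine samples scored 12.4 to 15.9. On the second component controls 2 and 3 were the ones apart, at -21.7 and -19.7, while the epinephrine samples scored 7.85 to 10.8 and control 1 lay just above them. The results for the members are given with and without control 1, and the comparison without it rests on the 2 controls set apart by the second component. The beta-cell identity of the samples was visible in all of them, since none of 20 beta-cell markers was at 0 in any sample. The 20 markers summed to 65773, 80346 and 83736 CPM in controls 1, 2 and 3 and to 77846 to 79644 CPM after epinephrine. Much of this was Ins2, at 24524 to 37104 CPM in the controls and 31279 to 33051 CPM after epinephrine, ranges that overlap. The sum does not show each marker, since Ins1 went from 2815 to 2932 CPM in the controls to 1983 to 2091 CPM. Pdx1 was at 556 to 696 CPM in the controls and at 455 to 484 CPM after epinephrine. In a list of 24 hepatocyte markers, 19 were higher in both control 2 and control 3 than in each of the other 4 samples. Albumin (Alb) was at 33.9 and 82.3 CPM in controls 2 and 3 and at 0.194 to 0.448 CPM in the others. The summed level of this list was 871 to 1639 CPM in the controls and 1589 to 1775 CPM after epinephrine, most of it Ttr, which beta cells express as well. Of the list, 10, 1 and 0 markers were at 0 in controls 1, 2 and 3 and 12, 11 and 10 in the epinephrine samples. The exocrine list summed to 2.59 to 3.88 CPM in the controls and 12.4 to 14 CPM after epinephrine, the fibroblast list to 4.34 to 26.2 and 2.12 to 23.2 CPM, and the leukocyte list to 1.14 to 3.56 and 3.47 to 4.39 CPM. The part of other cells in the results below was not tested, and in bulk RNA a change in the mix of cells and a change per cell cannot be told apart.

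Ribosomal protein transcripts took up a larger share of all counts in each epinephrine sample than in any control. The 78 tested members held 1.55%, 2.25% and 2.39% of the counts of controls 1, 2 and 3. They held 2.64%, 2.60% and 2.63% of the counts of the epinephrine samples. The groups did not overlap, and the epinephrine samples differed among themselves far less (2.62% ± 0.0225, SD, n = 3) than the controls did (2.06% ± 0.448, SD, n = 3). Small-subunit genes accounted for 0.741% ± 0.170 of the control counts and 0.953% ± 0.0115 of the epinephrine counts (SD, n = 3 each). Large-subunit genes accounted for 1.32% ± 0.278 and 1.67% ± 0.0111 (SD, n = 3 each). Without control 1 the controls averaged 2.32% ± 0.0933 (SD, n = 2), still below the epinephrine samples. The ratio of large-subunit to small-subunit counts was 1.83, 1.79 and 1.75 in controls 1, 2 and 3 and 1.74, 1.76 and 1.76 after epinephrine, so the ranges overlapped.

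In log2 units control 1 was lowest and the epinephrine samples were highest in each subunit. Relative to the mean of the controls, the median small-subunit gene was at -0.46, 0.18 and 0.28 in controls 1 to 3 and at 0.41, 0.39 and 0.40 in epinephrine samples 1 to 3. The median large-subunit gene was at -0.47, 0.19 and 0.27 in the controls and at 0.39, 0.42 and 0.40 in the epinephrine samples. Control 1 was the lowest sample of the 6 for 78 of 78 tested members, whereas it was the lowest for 34.8% of all 12747 tested genes. Of the tested members, 65 had no overlap between the groups, each epinephrine sample lying above each control, against 14.3% of all genes. These were 26 of 31 small-subunit and 39 of 47 large-subunit genes. Since control 1 was the lowest sample for every member, setting it aside could not change this count, while the share of all genes became 24.2%.

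**Figure D1:**
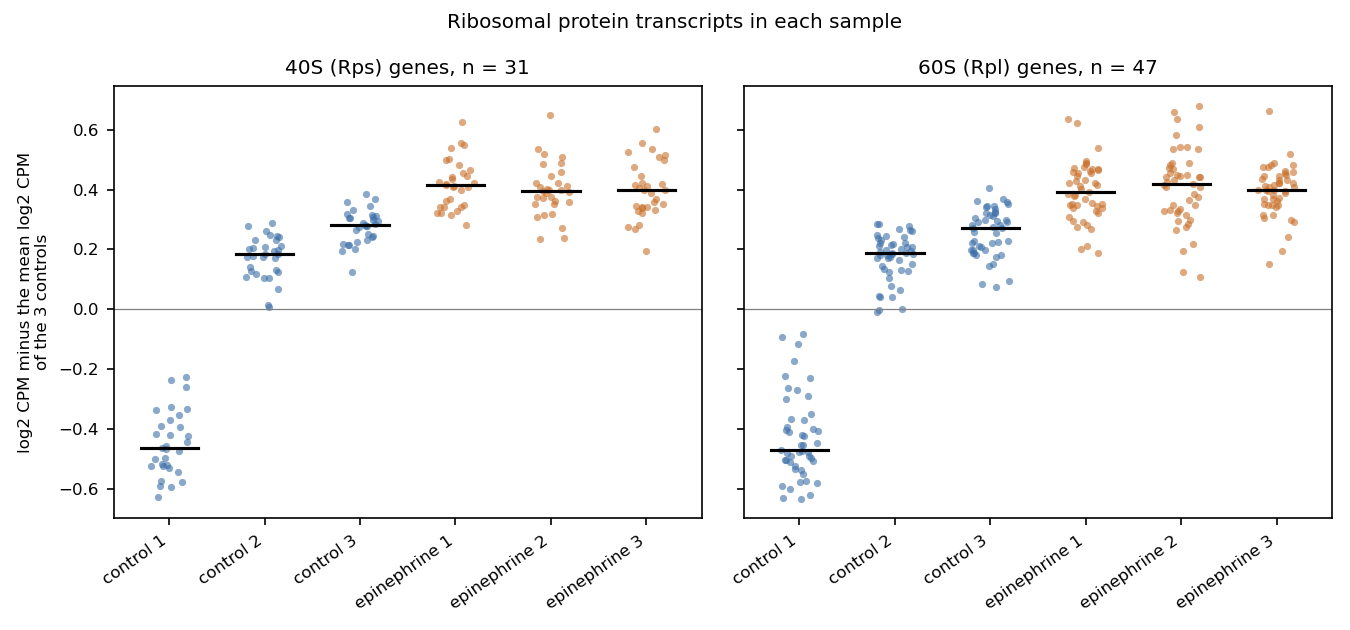
Level of each of the 78 tested ribosomal protein genes in each of the 6 samples (log2 CPM minus the mean log2 CPM of the 3 controls of that gene), with small-subunit genes on the left, large-subunit genes on the right, control samples in blue, epinephrine samples in orange and black bars at the medians. Control 1 lies below every other sample, with medians of -0.46 and -0.47, and the epinephrine samples have medians between 0.39 and 0.42.

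In the comparison of all 6 samples, every tested member had a positive log2 fold change, and none passed the test. The median was 0.36 for the small subunit (range 0.26 to 0.54) and 0.37 for the large subunit (range 0.13 to 0.60), or 1.28-fold and 1.30-fold, while the median of all tested genes was 0.00. With the quasi-likelihood test of edgeR, 0 members of either subunit reached a false discovery rate (FDR, the p-value adjusted over all 12747 tested genes) under 0.05, where 2.02% of all genes were called higher. At 2-fold as well as that FDR, 0 members were called, against 0.635% of all genes. At an unadjusted p under 0.05, 13 small-subunit and 19 large-subunit members were higher and 0 were lower, against 9.19% of all genes higher. The Wald test of DESeq2 called 1 small-subunit and 6 large-subunit members higher (3.18% of all genes), namely Rps2, Rpl4, Rpl12, Rpl18, Rpl28, Rplp0 and Rplp2. The exact test of edgeR called all of these but Rplp0 (4.16% of all genes). Rpl18 is named here after its values were seen.

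Without control 1 the estimates were smaller and many passed the test. The quasi-likelihood test then called 19 of 31 small-subunit and 32 of 47 large-subunit members higher and 0 lower, where 12.1% of all genes were called higher. Median log2 fold changes were 0.15 for the small subunit and 0.19 for the large subunit, or 1.11-fold and 1.14-fold, against 0.00 for all genes. All 31 small-subunit members and 46 of 47 large-subunit members had a positive value, the exception being Rpl37a. No member reached 2-fold. The median standard error over the members was 0.17 with control 1 and 0.05 without it. This comparison rests on 2 controls, the libraries that held the hepatocyte transcripts.

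**Figure D2:**
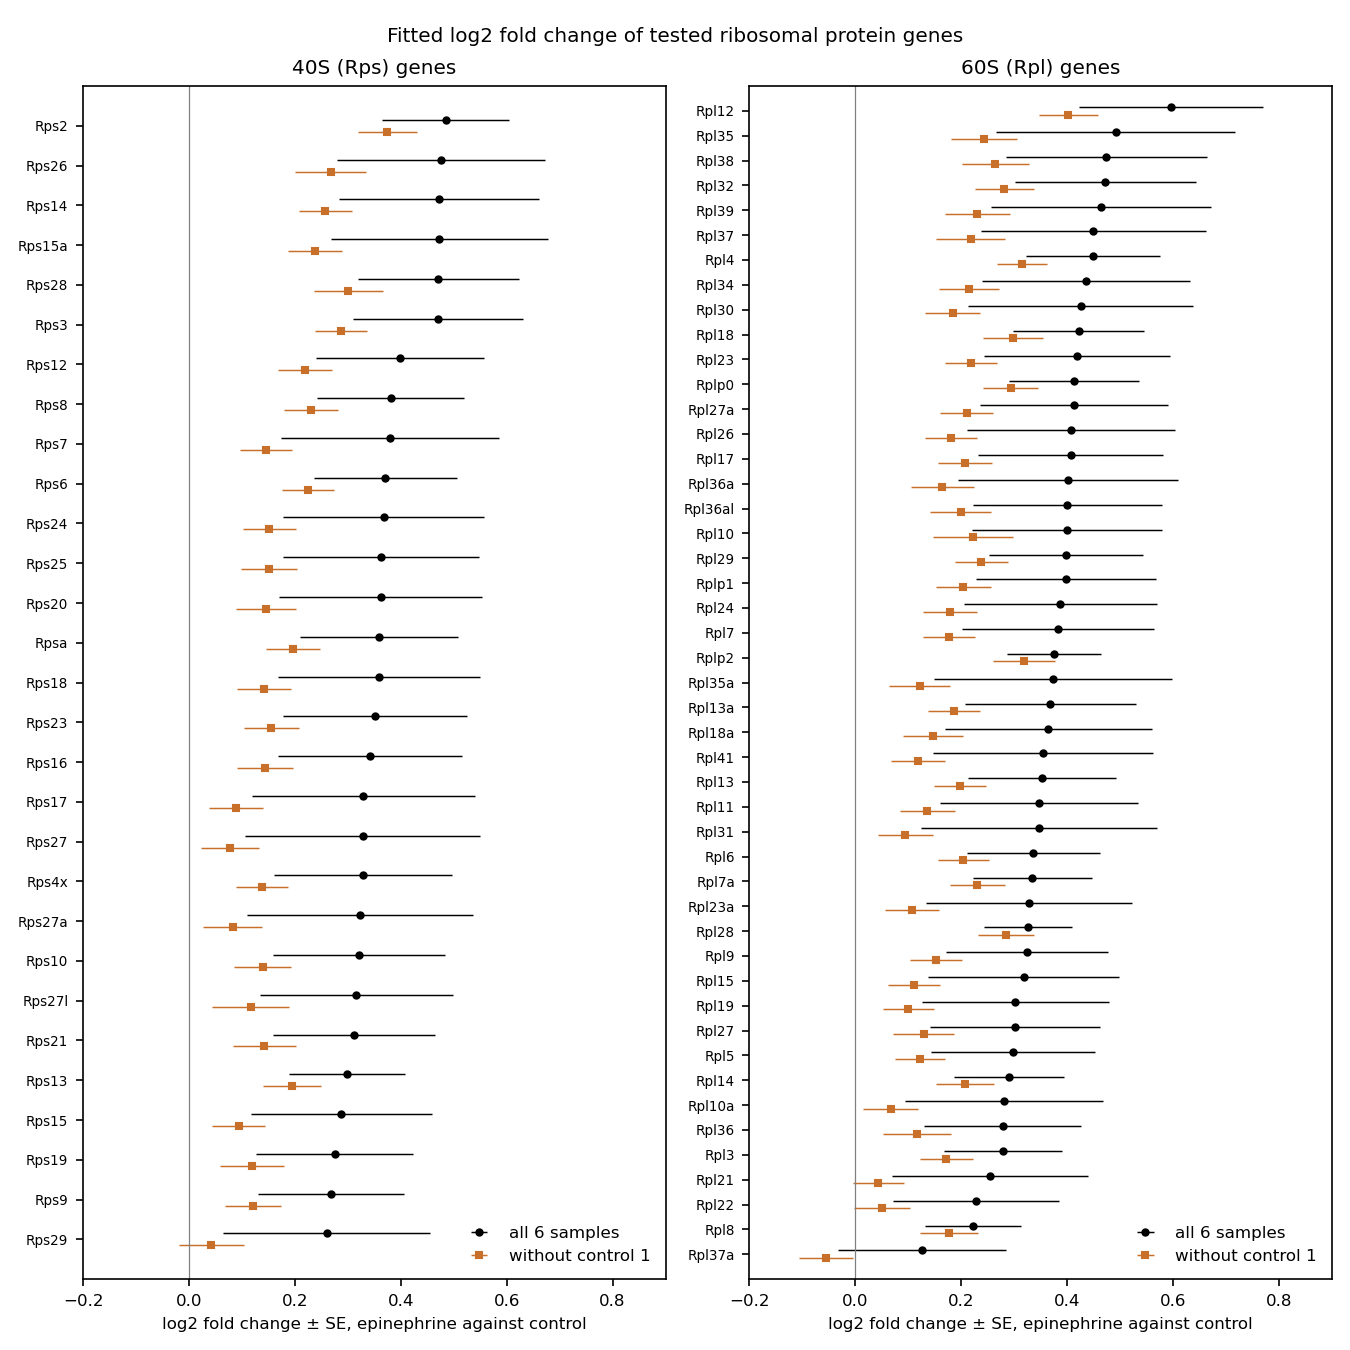
Fitted log2 fold change of the tested ribosomal protein genes (all but 2 of the small subunit, which are not shown), chronic epinephrine against control, with bars of 1 standard error, for all 6 samples (black circles) and without control 1 (orange squares), in the order of the values with all 6 samples. Without control 1 the values move towards 0 and their errors shrink, and Rpl37a alone falls below 0.

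Among the small-subunit genes with large differences were Rps2, Rps26 and Rps14. Rps2 (chr17:24718116-24721929, GENCODE on GRCm38), a protein near the entry of the messenger RNA channel, was at 485, 577 and 668 CPM in controls 1, 2 and 3 and at 779, 801 and 841 CPM in the epinephrine samples, without overlap. It had the smallest p of the small subunit, and its fitted difference was 0.48 ± 0.12 on the log2 scale (SE, FDR 0.0803 with edgeR's quasi-likelihood test) and 0.37 ± 0.06 without control 1 (SE, FDR 1.19e-05). Rps2 holds a small nucleolar RNA and lies opposite Snhg9, so that unstranded counting could mix their reads, and 43.0% of its stretches of 50 bases occur in other genes.
Rps26, which contacts the messenger RNA upstream of the exit site, was at 239, 369 and 435 CPM in the controls and at 434, 529 and 489 CPM after epinephrine. Its groups touched, since control 3 lay just above epinephrine 1, and its values were 0.48 ± 0.20 (SE, FDR 0.266) and 0.27 ± 0.07 without control 1 (SE, FDR 0.00433).
Rps14, a platform protein, was at 232, 384 and 409.9 CPM and then at 487, 464 and 472 CPM, with no overlap. Its log2 fold changes were 0.47 ± 0.19 (SE, FDR 0.250) and 0.26 ± 0.05 (SE, FDR 0.00034).

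Rps28 was also among the smallest p-values of the small subunit. Rps28, one of the shortest members, was at 29.8, 44.3 and 45.5 CPM and then at 53.7, 55.8 and 56.5 CPM, or 0.47 ± 0.15 in log2 (SE, FDR 0.164). It passed without control 1, at 0.30 ± 0.06 (SE, FDR 0.000983). Rps24 was the member of highest level per length, with a mean of 911 FPKM (fragments scaled to transcript length and library total) over the 6 samples. Its CPM were 278, 459.7 and 494 in the controls and 533, 542 and 513 after epinephrine.

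At the other end of the small subunit stood Rps29, Rps9 and Rps19. Rps29 was at 48.4, 82.2 and 86.1 CPM in the controls and at 87.5, 92.0 and 80.1 CPM after epinephrine. Controls 2 and 3 lay within the epinephrine range, and the fitted 0.26 ± 0.19 in log2 (SE, FDR 0.542) became 0.04 ± 0.06 without control 1 (SE, FDR 0.689). Rps9, whose protein takes part in decoding accuracy, and Rps19, known for its mutations in Diamond-Blackfan anaemia, had log2 fold changes of 0.27 ± 0.14 and 0.27 ± 0.15 (SE, FDR 0.365 and 0.388). Neither passed without control 1, at 0.12 ± 0.05 and 0.12 ± 0.06 (SE, FDR 0.102 and 0.176).

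Among the small-subunit genes listed for their roles, Rps6 encodes the substrate of the S6 kinases that act below mTOR. Its CPM were 384, 525 and 554 in the controls and 641, 617 and 635 after epinephrine, without overlap. In log2 it differed by 0.37 ± 0.13 (SE, FDR 0.204) and without control 1 it was 0.22 ± 0.05 (SE, FDR 0.00107). Rps3, a protein of the messenger RNA entry that also acts in DNA repair, lay between 194 and 303 CPM in the controls and between 357 and 378 CPM after epinephrine. Rpsa, the laminin receptor precursor, was at 501, 698 and 778 CPM and then at 836, 841 and 859 CPM. Both had groups without overlap and passed without control 1, at 0.29 ± 0.05 and 0.20 ± 0.05 (SE, FDR 8.17e-05 and 0.00571). Rps27a, made as a fusion with ubiquitin, was at 160.0, 294 and 298 CPM in the controls and at 341, 299 and 301 CPM after epinephrine. Control 3 and epinephrine 2 nearly met, and the gene passed in neither comparison (FDR 0.488 and 0.312). Rps4x, on the X chromosome, was at 296, 464 and 477 CPM and then at 545, 502 and 506 CPM, with an FDR of 0.367 that became 0.0487 without control 1.

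In the large subunit the largest difference of any member belonged to Rpl12, a protein at the base of the stalk. Rpl12 (chr2:32961559-32965345), which lies opposite Lrsam1, was at 154, 231 and 264 CPM in controls 1, 2 and 3 and at 325, 321 and 334 CPM in the epinephrine samples. The means were 216 ± 56.4 and 326 ± 6.33 CPM (SD, n = 3 each), or 1.51-fold, and the fit gave 0.60 ± 0.17 in log2 (SE, FDR 0.125). Each epinephrine sample exceeded each control, and without control 1 the value was 0.40 ± 0.06 (SE, FDR 3.25e-06).
Rpl35, Rpl38 and Rpl32 followed. Rpl35, at the tunnel exit, was at 108, 193 and 219 CPM and then at 228, 266 and 237 CPM. Rpl38 was at 61.5, 99.1 and 109 CPM and then at 117, 136 and 122 CPM. Rpl32 was at 107, 160.1 and 181 CPM and then at 205, 211 and 205 CPM. None of the 3 had overlapping groups, although the lowest epinephrine sample of Rpl35 and Rpl38 was close to control 3. Their log2 fold changes were 0.49 ± 0.23, 0.47 ± 0.19 and 0.47 ± 0.17 (SE, FDR 0.316, 0.252 and 0.203). Without control 1 they were 0.24 ± 0.06, 0.26 ± 0.06 and 0.28 ± 0.06 (SE, FDR 0.00526, 0.00286 and 0.000431).

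The smallest p-values of the large subunit belonged to Rplp2, Rpl28 and Rpl4, whose control samples were closer together. Rplp2 (chr7:141447370-141451585) was at 73.1, 81.7 and 83.5 CPM in the controls and at 106, 96.6 and 107 CPM after epinephrine. The fitted log2 difference was 0.37 ± 0.09 (SE, FDR 0.0749), the lowest FDR of all members, and 0.32 ± 0.06 without control 1 (SE, FDR 0.000206). Rpl28 (chr7:4792874-4795066), opposite Ube2s, was at 149.5, 159 and 168 CPM in the controls and at 193, 199 and 205 CPM after epinephrine. The fitted difference was 0.33 ± 0.08 in log2 (SE, FDR 0.0867) and 0.28 ± 0.05 without control 1 (SE, FDR 0.00022). Rpl4 (chr9:64173375-64178666), a long member that lines the tunnel, was at 612, 820.4 and 849.8 CPM and then at 1041, 1022 and 1052 CPM. Its values were 0.45 ± 0.13 (SE, FDR 0.112) and 0.31 ± 0.05 without control 1 (SE, FDR 1.31e-05), and its gene holds 5 small nucleolar RNAs.

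**Figure D3:**
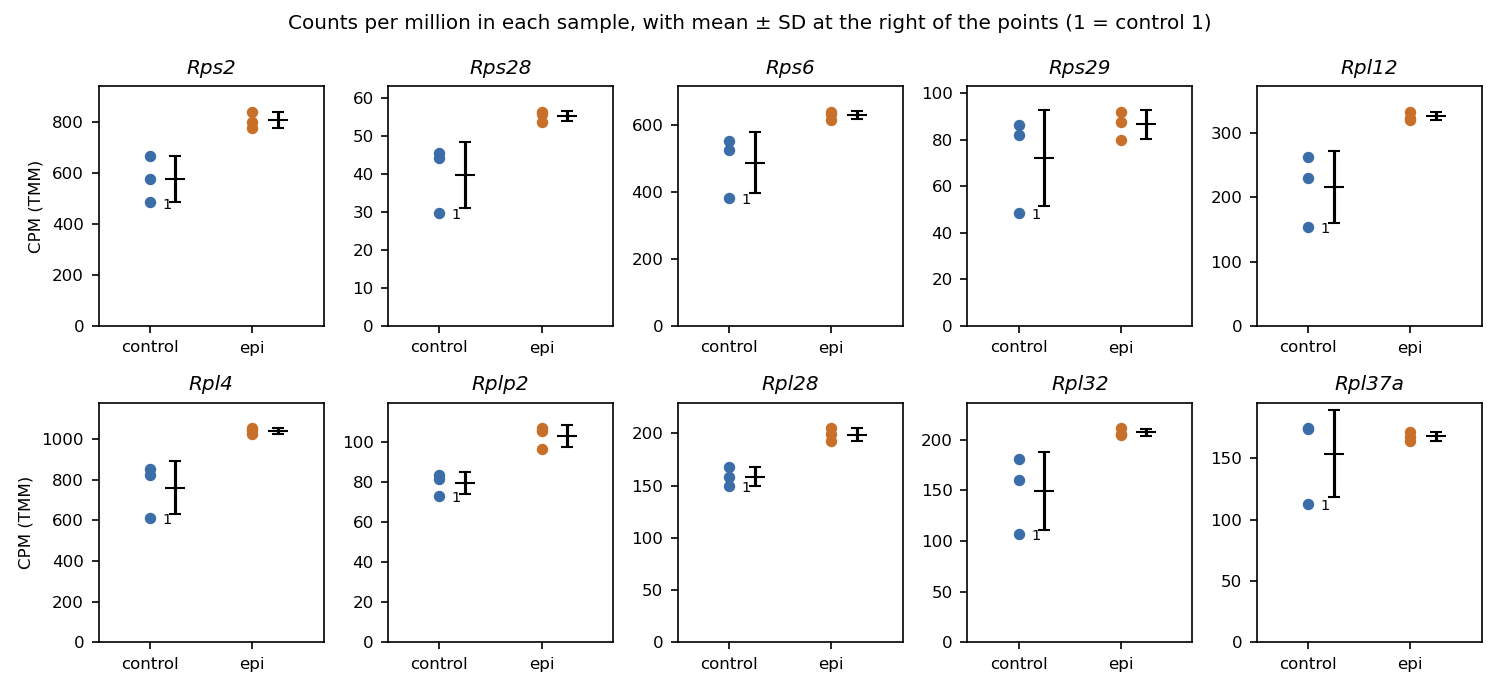
Normalised CPM of 10 named genes in each control (blue, with control 1 marked 1) and each epinephrine sample (orange, marked epi), with the mean and SD of 3 samples beside the points and axes that start at 0. The epinephrine points lie above all control points for every gene shown but Rps29 and Rpl37a, whose controls 2 and 3 lie among or above them.

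Rpl37a (chr1:72711290-72713813) had the only negative value of the module once control 1 was set aside. It was at 113, 174 and 174 CPM in the controls and at 172, 164 and 167 CPM after epinephrine. Controls 2 and 3 lay above every epinephrine sample, and the fitted log2 values were 0.13 ± 0.16 over all samples (SE, FDR 0.735) and -0.06 ± 0.05 without control 1 (SE, FDR 0.495). Rpl8 and Rpl22 were the next lowest of the large subunit with all 6 samples. Rpl8, a protein of the catalytic core, was at 333, 355 and 379 CPM and then at 428, 383 and 435 CPM, and passed without control 1 (0.18 ± 0.06, SE, FDR 0.0208). Rpl22, at the tunnel exit, was at 108, 162 and 168 CPM and then at 176, 173 and 164 CPM, where control 3 overlapped the epinephrine samples and neither comparison passed (FDR 0.507 and 0.55).

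By role, the 3 proteins of the stalk that recruits elongation factors lay at a median of 0.40 in log2 fold change, and all 3 passed without control 1, at a median of 0.29. Rplp0, the base of the stalk, was at 669, 838 and 921 CPM in the controls and at 1111, 1021 and 1099.8 CPM after epinephrine, or 0.41 ± 0.12 in log2 (SE, FDR 0.131). Rplp1 was at 139, 217 and 231 CPM and then at 265, 255 and 254 CPM, with 0.40 ± 0.17 (SE, FDR 0.283). Without control 1 the values were 0.29 ± 0.05 for Rplp0 and 0.20 ± 0.05 for Rplp1 (SE, FDR 0.000133 and 0.00441). The groups of all 3 stalk genes were separate. Rpl5 and Rpl11, which carry the smallest ribosomal RNA into the large subunit and bind Mdm2 when free, did not pass in either comparison. Rpl5 was at 318, 489 and 479.9 CPM and then at 538, 524 and 519.6 CPM, and Rpl11 at 185, 299 and 329 CPM and then at 335, 353 and 346 CPM. Their values without control 1 were 0.12 ± 0.05 and 0.14 ± 0.05 (SE, FDR 0.0666 and 0.0627), and their difference from the stalk genes was not tested. The 9 proteins around the tunnel exit had a median of 0.41 with control 1 and 0.18 without it, with 5 of 9 passing. These shares stand against 51 of all 78 members and 12.1% of all genes. In the small subunit, 6 of 14 head proteins and 13 of 16 body and platform proteins passed without control 1, at medians of 0.14 and 0.20. With all 6 samples these groups had medians of 0.35 and 0.37, and the difference between them was not tested.

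The remaining large-subunit genes fixed by role or level were Rpl10, Rpl13a, Rpl23a, Rpl41 and Rpl3. Rpl10, which joins the large subunit late in its assembly, was at 152, 242 and 223 CPM and then at 314, 231 and 269 CPM, so its groups overlapped (FDR 0.305, and 0.0351 without control 1). Rpl13a, known as part of the interferon response complex GAIT, was at 359, 534 and 582 CPM and then at 643, 628 and 634 CPM (FDR 0.295, and 0.00706 without control 1). Rpl41, the shortest protein of the ribosome, had the highest level per length of the large subunit, a mean of 906 FPKM. Rpl13a and Rpl23a followed with 849 and 747 FPKM. Rpl41 and Rpl23a did not pass without control 1 (FDR 0.103 and 0.14). Rpl3, which reaches into the catalytic centre, was at 387, 479.9 and 505 CPM and then at 570.2, 528 and 566 CPM (FDR 0.250, and 0.0137 without control 1).

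Some members have a second copy of their gene, and 3 of these copies failed the filter on low counts. Rpl3l, known from muscle, and Rpl10l, known from testis, had 0 counts in all 6 samples, which allows a level of up to 3 counts, at most 0.2 CPM, in each library. Rpl39l had 1 count in control 3 and in epinephrine samples 2 and 3 and 0 in the others. Rpl36al was more abundant per length than its partner Rpl36a in all 6 samples. Rpl36al made up 59.4%, 56.9% and 56.5% of the summed FPKM of the pair in controls 1, 2 and 3 and 58.1%, 56.9% and 56.5% after epinephrine, ranges that overlap. Rps27l made up 18.3%, 15.7% and 16.4% of its pair with Rps27 in the controls and 15.5%, 16.5% and 17.5% after epinephrine. Rpl22l1, which the naming rule left out, made up 10.3%, 12.4% and 11.4% of its pair with Rpl22 in the controls. After epinephrine it made up 16.1%, 13.9% and 12.7%. These groups did not overlap, although control 2 and epinephrine 3 nearly met, and the difference in share was not tested. Rpl7l1 made up 6.23% to 7.66% and 5.52% to 6.81% of its pair with Rpl7, ranges that overlap. Processed copies are common for these genes, and 78 of 81 members share some stretches of 50 bases with other annotated genes. More than 50% of the stretches were shared in 5 members, namely Rpl36 (81.1%), Rplp1 (60%), Rpl19 (57.4%), Rpl24 (51.8%) and Rpl23a (50.1%), whose values are therefore uncertain.

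Members with whole expected counts in every sample were compared with the others. Whether whole counts are free of shared reads was not tested, and Rpl36 and Rpl19, with many shared stretches, had whole counts. In the 60 tested members with whole counts the median log2 fold change was 0.36 with control 1 and 0.18 without it, and 38 passed without it. The other 18 had medians of 0.37 and 0.16, and 13 passed. In that fit 12.1% of all genes were called higher. Small nucleolar RNAs lie inside 29 of the members. Of these 29, 23 passed without control 1, with a median of 0.21, against 28 of the 49 tested members with none inside, whose median was 0.15. Members with a pyrimidine run at the start (13 of the 58 tested members with a window) had medians of 0.36 and 0.21 with and without control 1, and the other 45 had medians of 0.36 and 0.18. Without control 1, 8 of the 13 and 31 of the 45 passed. For CCGGAAG the medians of holders and non-holders were 0.37 and 0.35, and without control 1 they were 0.19 and 0.18.

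The distance of control 1 from the other controls moved with the length of the transcript. Lengths were recovered from the authors' counts and FPKM, and the tested members had medians of 647 bases in the small subunit and 725 bases in the large subunit, against 2741 bases for all tested genes. Among other genes under 750 bases, control 1 was at a median of -0.60 in log2 relative to controls 2 and 3. From 750 to 1500 bases the median was -0.31, from 1500 to 3000 bases it was -0.06, and above 3000 bases it was 0.18. Members lay at -0.73 under 750 bases (44 genes) and at -0.69 from 750 to 1500 bases (30 genes). The 3 members from 1500 to 3000 bases lay at -0.56, and Rps20, whose length came out above 3000 bases, lay at -0.78. The cause of these values was not tested. Across the 78 members, Spearman's rho of length with the difference of control 1 from controls 2 and 3 was 0.315. Across the 11780 other genes with a length it was 0.487. These correlations are across genes of the same libraries and describe those libraries only. Rpl28, Rpl8 and Rplp2 were the least reduced members in control 1, at -0.13, -0.14 and -0.17. Among other genes the mean of the epinephrine samples did not follow length in this way, with medians of 0.00, 0.01, 0.00 and 0.00 in the same 4 classes and a rho of -0.01. The members of the first 2 classes lay at 0.15 and 0.20, and across the 78 members rho of length with the epinephrine difference was 0.26, 0.374 in the small subunit and 0.21 in the large subunit. A fit offset by GC content as well as length, which was added once the data had been seen, gave medians of 0.20 and 0.21 over all 6 samples. With it 7 small-subunit and 12 large-subunit members were called higher, against 6.02% of all genes, and all 19 were among the 51 called without control 1. An offset for length alone called 1 and 2 members, a share near the 2.97% of all genes. The offset for both without control 1 called 22 and 37, against 13.2% of all genes.

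**Figure D4:**
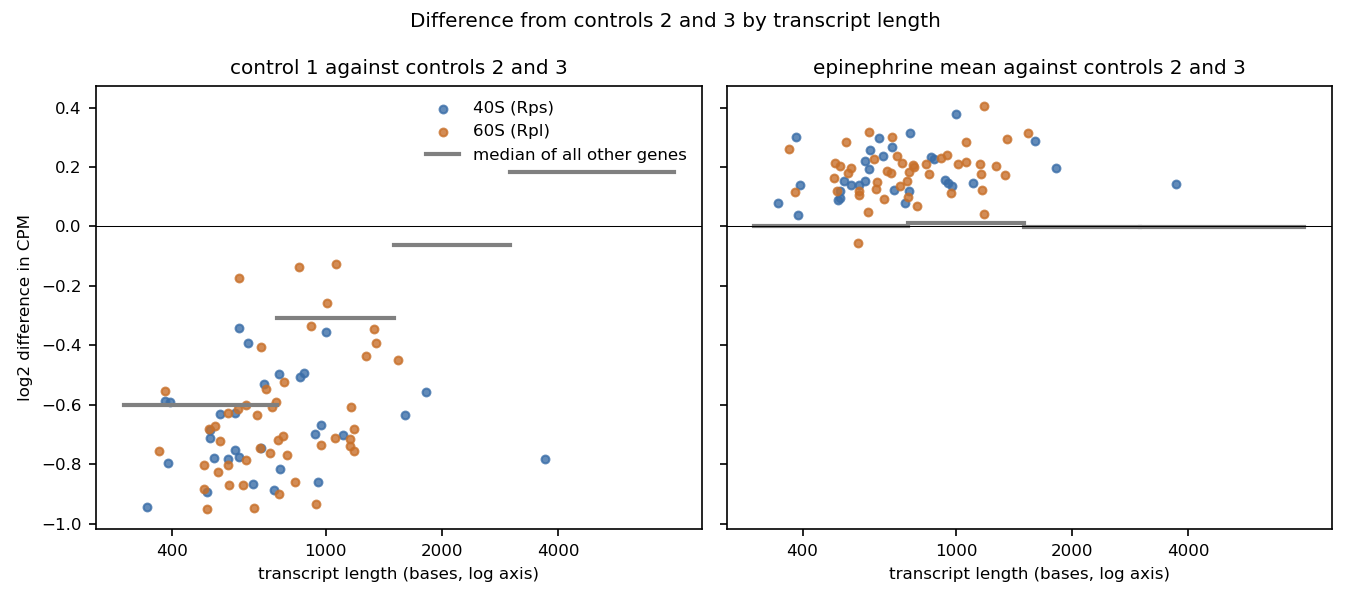
Difference in log2 CPM from the mean of controls 2 and 3, for control 1 (left) and for the mean of the epinephrine samples (right), against transcript length on a log axis, with small-subunit genes in blue, large-subunit genes in orange and grey lines at the median of all other tested genes in 4 length classes. In control 1 the grey lines climb from -0.60 to 0.18 with length while the members lie between -0.13 and -0.95, and in the epinephrine samples the grey lines stay near 0 and all members but Rpl37a lie above 0.

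Whether members moved apart from each other was examined by using their own summed counts as the library size, also chosen after seeing the data. With all 6 samples 0 members passed in edgeR's quasi-likelihood test, against 0.00784% of all genes. No member had an unadjusted p under 0.05, against 1.02% of all genes higher and 28.5% lower. Without control 1, 4 of 78 passed. Relative to the members' total, Rps2 and Rpl12 were called higher, by 0.19 (FDR 0.013) and 0.21 (FDR 0.00672). These 2 of 78 were a smaller share than the 4.32% of all genes called higher. Rpl37a and Rpl21 were called lower, at -0.25 (FDR 0.00299) and -0.15 (FDR 0.04), where 39% of all genes were called lower. This scaling put the median of all genes at -0.43 with all 6 samples and at -0.19 without control 1. The shares of all genes are therefore not those to be had for members by chance. Rpl21, named after its values were seen, was at 307, 516 and 521 CPM in the controls and at 544, 544 and 514 CPM after epinephrine. The median of the large subunit minus that of the small subunit was 0.01 over all samples, 0.03 without control 1 and -0.01 with a length offset, and this difference was not tested.

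Other genes of the ribosome and of its supply were read beside the members. The naming rule missed some ribosomal genes and related gene copies, and a list of these was chosen by hand. All 7 tested genes of this list had positive values, with a median of 0.35. Among them Rps27rt lay at only 0.474 to 2.24 CPM, with 0.58 ± 0.55 in log2 (SE, FDR 0.640). With all samples 0 passed in edgeR's test (2.02% of all genes higher), and 2 were at an unadjusted p under 0.05 (9.19% of all genes). Without control 1 the median was 0.13 and 2 of 7 passed, against 12.1% of all genes. Rack1, a scaffold on the small subunit, was at 342, 483 and 518 CPM in the controls and at 595, 549.8 and 579 CPM after epinephrine, and passed without control 1 (0.20 ± 0.05, SE, FDR 0.00495), and it too is named after its values were seen. Rpl22l1 also passed there, at 0.36 ± 0.11 (SE, FDR 0.0166). Of 18 tested genes whose messenger RNAs carry the TOP motif but encode no ribosomal protein, 16 had positive values at a median of 0.22. Eef1g, a subunit of the factor that reloads elongation factor 1, was the only one called with all samples. It was at 296, 282 and 307 CPM in the controls and at 441, 392 and 435 CPM after epinephrine, or 0.52 ± 0.09 in log2 (SE, FDR 0.0182), in which control 1 did not lie apart. Without control 1, 11 of the 18 were called higher, against 12.1% of all genes. Hnrnpa1 was called lower (-0.22 ± 0.05, SE, FDR 0.00207), where 9.46% of all genes were called lower.

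Genes of ribosome biogenesis, which process ribosomal RNA and assemble the subunits, had smaller values. Of 40 tested, 33 were positive at a median of 0.14 and 0 were called in edgeR's test, with 4 higher at an unadjusted p under 0.05, a share close to the 9.19% of all genes. Without control 1 the median was 0.11 and 9 of 40 were called higher, against 12.1% of all genes. Tsr1, an assembly factor of the small subunit, was at 39.9, 38.7 and 40.5 CPM and then at 51.2, 49.9 and 51.2 CPM, without overlap (0.36 ± 0.08, SE, FDR 0.0552, and 0.36 ± 0.07, SE, FDR 0.000204 without control 1). Gnl3 had the largest value of the list with all samples, 0.38 ± 0.13 (SE, FDR 0.187), which became 0.25 ± 0.08 without control 1 (SE, FDR 0.0236). In that comparison Rrp12 was the largest, at 0.40 ± 0.12 (SE, FDR 0.0131), and it is named after its values were seen. Ubtf, a transcription factor for ribosomal RNA genes, had the lowest value with all samples, -0.15 ± 0.08 (SE, FDR 0.377), and was at -0.11 ± 0.05 without control 1 (SE, FDR 0.143). Mitochondrial ribosomal proteins, which serve the other translation system of the cell, had a median of 0.12 over 78 genes with all samples and of 0.00 without control 1. In that comparison 6 were called higher and 4 lower, against 51 higher and 0 lower of the same number of cytosolic members. Of all genes, 12.1% were called higher and 9.46% lower, and the difference between these lists was not tested. Control 1 was low for the mitochondrial ribosomal genes too, at a median of -0.41 relative to controls 2 and 3.

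Genes that control translation had no common direction, with 5 of 11 positive at a median of -0.07. Without control 1, 7 of 11 were positive at a median of 0.11, so the sign of the median turned on that library. In edgeR's test 1 of 11 was called higher with all samples (2.02% of all genes) and 3 without control 1 (12.1% of all genes). In both comparisons 0 were called lower. Eif4ebp1, the inhibitor of cap-dependent initiation that mTOR phosphorylates and a known target of Atf4, lay between 8.80 and 13.0 CPM in the controls and between 30.4 and 32.1 CPM after epinephrine. It was called with all samples, at 1.62 ± 0.15 (SE, FDR 0.00199), and without control 1 at 1.54 ± 0.11 (SE, FDR 6.19e-11). Mtor had the lowest value, -0.36 ± 0.21 (SE, FDR 0.441), with control 1 at 56.7 CPM and the other samples at 31.1 to 32.2 CPM, and without control 1 it was at -0.02 ± 0.08 (SE, FDR 0.884). Myc, a transcription factor of ribosomal genes, was at 11.3, 8.63 and 9.20 CPM and then at 14.4, 12.9 and 13.2 CPM. It did not pass with all samples (FDR 0.107) and passed without control 1 at 0.60 ± 0.12 (SE, FDR 0.000358), and it is named here after its values were seen. Eif2ak3, also named after its values were seen, did not pass with all samples (FDR 0.303). It passed without control 1, at 0.30 ± 0.06 (SE, FDR 0.00085).

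**Figure D5:**
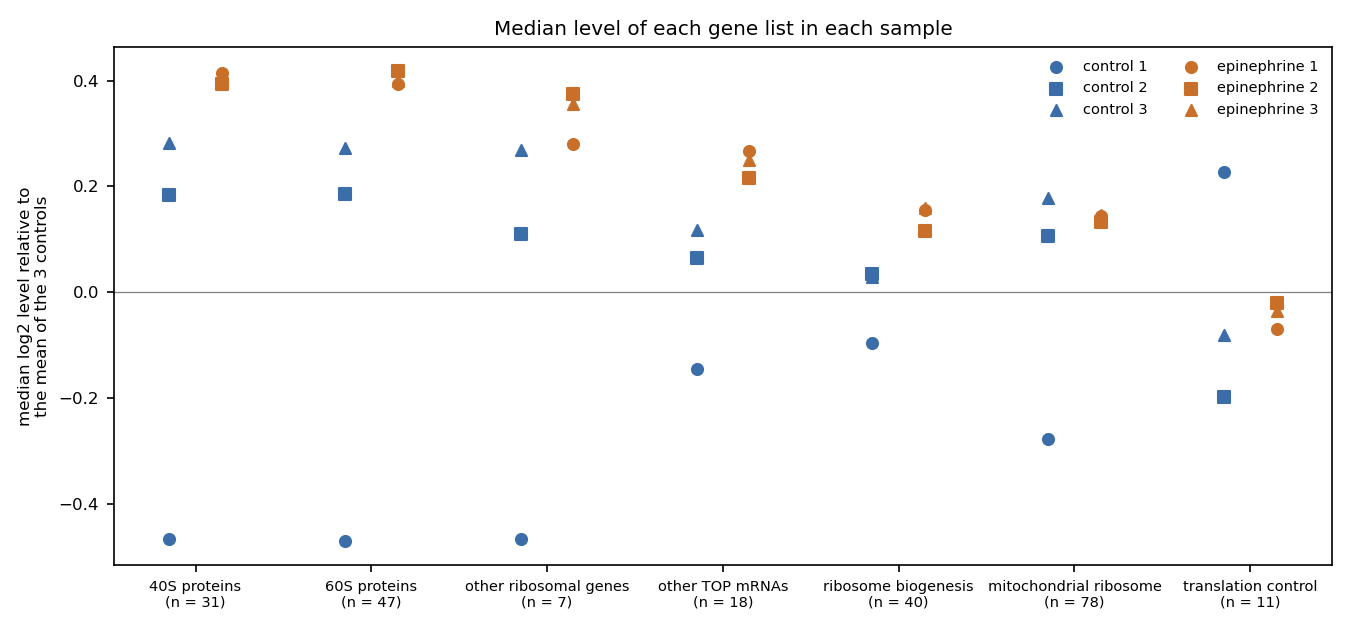
Median level of each gene list in each sample (log2 CPM relative to the mean of the 3 controls of each gene), with controls in blue, epinephrine samples in orange, replicate numbers by marker shape and the number of tested genes under each name. In the cytosolic ribosomal lists, the TOP list and the biogenesis list all epinephrine samples lie above all controls, while for the mitochondrial ribosome control 3 (0.18) lies above the epinephrine samples (0.13 to 0.15).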

How the data were processed

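RNA of 3 control and 3 chronic epinephrine samples was sequenced on an Illumina Novaseq6000. The authors deposited 2 values per gene and sample. The expected count they deposited is not normalized, and the FPKM they deposited is scaled to transcript length and library total. The submitters' notes name GRCm38, while the aligner and the counting tool are not given in the sources used here. Expected counts were rounded (8.34% were not whole). Genes kept by filterByExpr were scaled by TMM, and edgeR 4.0.16 (R 4.3.3) supplied the quasi-likelihood test. Its p-values were adjusted over the 12747 genes tested with all 6 samples (Benjamini-Hochberg). The fits without control 1 tested 12966 genes and were adjusted over these. The standard error is the log2 fold change divided by the square root of F. CPM are TMM-scaled, and log2 CPM used a prior count of 2. DESeq2 1.42.0, limma 3.58.1 on log2(FPKM + 1) and log2(FPKM + 0.1), other scalings and filters, a replicate block, a length offset and each sample left out were alternatives. The scripts were tested on simulated data. For a single gene, an exact two-sided permutation test of 3 against 3 samples allows no p under 0.1. GENCODE mouse release 21 (GRCm38) held 22255 of the table's identifiers and all 81 members. Sequences are from RefSeq (GRCm38.p6), which matched 61 members by symbol. The limit given for a count of 0 covers counting error only.

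The members and lists were chosen with earlier results of these data known. Named in each subunit were the 3 members of highest mean FPKM, the 4 of largest and 3 of smallest log2 fold change, the 3 of smallest p, genes fixed by role, pairs of gene copies and all members that failed the filter. Of each other list, up to 3 genes (largest, smallest, smallest p) were named. Results of 2 small-subunit members are not reported here by name.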

Additional observations from a re-analysis of the deposited data

How the results depend on the processing

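Counts at an FDR under 0.05, which were 0 in both subunits, moved under these settings. DESeq2 gave 1 small-subunit and 6 large-subunit members, the edgeR exact test 1 and 5, and a length offset 1 and 2. The offset for length and GC content gave 7 and 12, and the same offset without control 1 gave 22 and 37. In the same order, 3.18%, 4.16%, 2.97%, 6.02% and 13.2% of all genes were called higher. Leaving out 1 sample at a time gave 0 to 19 small-subunit and 0 to 32 large-subunit members, the upper values without control 1, and the cause was not tested. The number of all genes called went from 335 to 2798 without control 1. Relative to the members' total the count was 0, and 4 without control 1. No setting brought a member past 2-fold at that FDR. Medians kept their direction in every setting but the members' total as library size, where by construction they lay near 0 (-0.01 and 0.01, and -0.039 and -0.0039 without control 1), and ran from 0.15 to 0.50 (small) and 0.19 to 0.51 (large) when 1 sample was left out. Of 800 values of 40 named members, which do not include the members' total as library size, 796 kept their direction. Rpl37a turned to -0.055 without control 1 (up to 0.22 with another sample left out, control 3). It was at -0.067 with the length offset, -0.041 with the offset for length and GC content and -0.11 with that offset without control 1. Replicate numbers were not treated as pairs, since same-numbered samples correlated at 0.0502, 0.0677 and -0.0488. With the replicate block, medians were 0.39 and 0.41, with 0 members called (178 of all genes). Rpl10l and Rpl3l, with 0 counts, and Rpl39l gave no fold change in any fit with a filter. A count of 0 allows up to 3 counts in a library.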
